A study of Mus musculus with 5 samples.

Results

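This account follows 10 forkhead genes of mouse embryonic stem cells, Foxa1, Foxa2, Foxa3, Foxc1, Foxc2, Foxd3, Foxf1, Foxf2, Foxl1 and Foxq1, among 21031 protein-coding symbols with a RefSeq mRNA. They were taken by symbol from column 1 of the 6 deposited gene and promoter tables, and their peaks from the 3 deposited peak lists. Presence in these tables is how the members were found and is not a result. All 10 stood in one of the whole-gene tables, as did 54% of all coding genes. Their own symbols gave 9 of them a place in the promoter tables, against 53.1% of all coding genes, and Foxf1 was listed there through its transcript accession in the row named for Fendrr, a long noncoding RNA gene beside it. In vehicle-treated cells 9 of the 10 carried a Ring1b peak within 1 kb of the start site and 7 carried a KAP1 peak there. Of coding genes with a reference start, 28.5% and 59.9% did. Foxa3 was the member without Ring1b, and Foxc1, Foxf2 and Foxl1 were those without KAP1. In tamoxifen-treated KAP1 fl/fl cells no member had a Ring1b peak called within 1 kb of its start, against 2.79% of such genes.

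The study used chromatin immunoprecipitation followed by sequencing (ChIP-seq), with 5 libraries in 5 groups and 1 library per group. KAP1, the corepressor encoded by Trim28, was precipitated from the KAP1 fl/fl line under ethanol vehicle or 4-hydroxytamoxifen. Ring1b, encoded by Rnf2, was precipitated from the Ring1b fl/fl line under either treatment and, under 4-hydroxytamoxifen, also from the KAP1 fl/fl line. Both lines carry floxed alleles in all groups, vehicle controls included. Treatment lasted 24 h and was followed by 48 h of culture, with tamoxifen still present for Ring1b fl/fl cells and without it for KAP1 fl/fl cells. All cultures grew on irradiated mouse embryonic fibroblast feeders. The sources used here do not state the Cre driver or whether each line is a single clone.

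Forkhead proteins are transcription factors that bind DNA through a winged-helix domain. Those of the Foxa group can bind nucleosomal DNA and open it, and they act in endoderm, liver and pancreas. Members of the Foxc, Foxf, Foxl and Foxq groups act mainly in mesoderm derivatives and gut, and Foxd3 acts in pluripotent cells and neural crest. Ring1b is the ubiquitin ligase subunit of Polycomb repressive complex 1, which keeps developmental genes silent in stem cells, often over CpG-rich starts. KAP1 is best known for silencing repeats to which zinc finger proteins recruit it.

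Each peak list came from 1 library called against 1 other, so no value has a replicate error and no difference between conditions was tested. The vehicle KAP1 list held 82775 peaks, called against tamoxifen-treated KAP1 fl/fl cells. The vehicle Ring1b list held 13516, called against tamoxifen-treated Ring1b fl/fl cells. The third list, Ring1b in tamoxifen-treated KAP1 fl/fl cells, held 8928 peaks and is called the knockout list. Its control was the Ring1b library of tamoxifen-treated Ring1b fl/fl cells, a different line, which was also the control of the vehicle Ring1b list. The sources used here give no read depths. Peak scores are the authors' deposited values of 10 times the -log10 p against the control and rank peaks within 1 list. Median scores were 96.2 for KAP1, 116 for Ring1b and 58.9 for the knockout list, and median widths were 512, 587 and 158 bp. Peaks do not measure expression, so the cell type could not be checked from markers, and the share of feeder chromatin was not tested. By symbol in the deposited promoter tables, Ring1b was at 3 of 6 stem cell marker genes and 6 of 8 fibroblast marker genes, against 25.4% of all coding genes. KAP1 was at 6 and 5 of them, against 49.6%.

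The sequence before the start site differed among the members. Of the 10, 6 had an entry in the promoter table from RefSeq (assembly GRCm38.p6, which matches the peak files), and Foxc2, Foxf1, Foxl1 and Foxq1 had none. The 250 bases upstream of the start are shown for 5 of them, 5′ to 3′ on the gene's strand with every CG in capitals, because they cover the contrasts between the proteins. The regions of Foxa1 (chr12:57546112-57546361, minus strand) and Foxa2 (chr2:148046970-148047219, minus strand) lay at promoters with both proteins. That of Foxa3 (chr7:19023540-19023789, minus strand) lay at a promoter with KAP1 alone. Those of Foxc1 (chr13:31806396-31806645, plus strand) and Foxf2 (chr13:31625566-31625815, plus strand) lay at promoters with Ring1b alone.
Foxa1: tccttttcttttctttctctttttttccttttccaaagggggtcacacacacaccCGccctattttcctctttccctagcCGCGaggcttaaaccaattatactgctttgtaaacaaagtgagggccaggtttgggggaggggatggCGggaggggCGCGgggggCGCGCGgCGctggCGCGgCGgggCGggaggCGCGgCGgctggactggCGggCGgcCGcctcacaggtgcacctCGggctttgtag
Foxa2: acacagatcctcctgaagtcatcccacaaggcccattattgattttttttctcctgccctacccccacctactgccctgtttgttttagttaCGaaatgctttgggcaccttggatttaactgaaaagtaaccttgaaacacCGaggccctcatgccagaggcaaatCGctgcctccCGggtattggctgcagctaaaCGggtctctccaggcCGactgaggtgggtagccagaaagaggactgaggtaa
Foxa3: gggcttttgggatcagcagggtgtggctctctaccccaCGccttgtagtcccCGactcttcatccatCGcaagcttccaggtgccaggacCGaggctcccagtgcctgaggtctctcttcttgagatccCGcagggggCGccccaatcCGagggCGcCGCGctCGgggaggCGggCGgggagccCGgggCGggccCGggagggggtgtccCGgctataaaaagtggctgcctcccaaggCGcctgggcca
Foxc1: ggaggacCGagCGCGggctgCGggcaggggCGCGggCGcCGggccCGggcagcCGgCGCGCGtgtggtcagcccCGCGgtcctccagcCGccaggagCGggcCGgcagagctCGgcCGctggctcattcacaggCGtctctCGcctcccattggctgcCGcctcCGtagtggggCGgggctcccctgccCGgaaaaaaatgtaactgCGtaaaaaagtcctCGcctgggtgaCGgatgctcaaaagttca
Foxf2: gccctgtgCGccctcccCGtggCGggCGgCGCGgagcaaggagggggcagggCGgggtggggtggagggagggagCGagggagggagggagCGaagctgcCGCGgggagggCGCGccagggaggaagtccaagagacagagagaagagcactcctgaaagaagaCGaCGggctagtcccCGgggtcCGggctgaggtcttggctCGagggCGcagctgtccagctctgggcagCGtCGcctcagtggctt

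The Foxc1 stretch held 29 CG dinucleotides and had a GC content of 70.8%. Foxa1, Foxf2 and Foxd3 (chr4:99656049-99656298, plus strand, not shown) held 21 each, and Foxa3 held 18. Foxa2 held 6, below the median of 10 over the 20488 promoters of coding genes in the table, while the other 5 lay above it. Foxa2 was the CG-poor sequence of the 6, and all 250 of its bases lay under a Ring1b peak. The reference gives Foxa2 3 start sites, and only this stretch was counted. A link between CG content and Ring1b was not tested. All 250 bases were also under Ring1b at Foxa1, Foxc1, Foxd3 and Foxf2. At Foxa3, 0 bases were under Ring1b and 250 under KAP1. KAP1 peaks covered 250 bases at Foxd3, 75 at Foxa1 and 0 at Foxa2, Foxc1 and Foxf2. The letters TGTTTAC, a core forkhead recognition sequence, were searched on both strands and found in the Foxa1 stretch (gtaaaca on the strand shown), in 1 of the 6, against 2.55% of all promoters. The letters TATAAA, searched likewise, were found at Foxa3 (ctataaaa) and in 11.5% of all promoters. These are matches of letters and not evidence of binding.

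**Figure D1:**
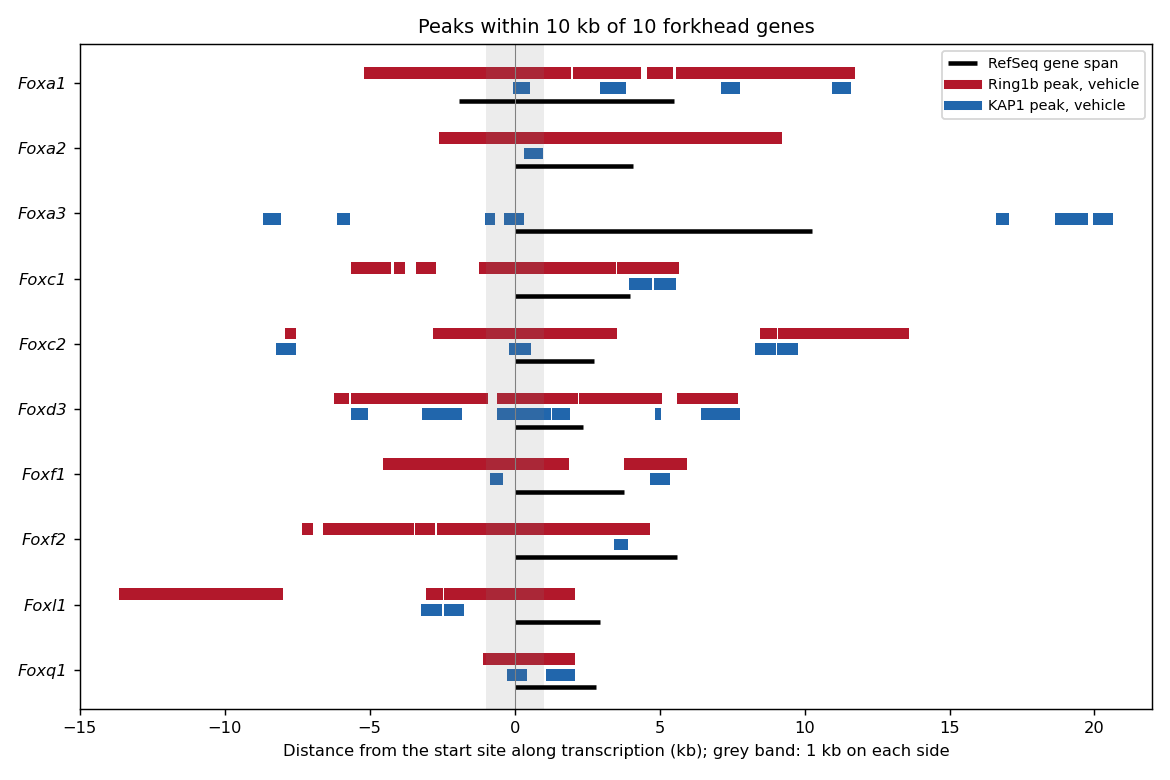
Ring1b peaks (red) and KAP1 peaks (blue) of vehicle-treated cells that reach within 10 kb of each forkhead gene, against distance from the start site in kb along the direction of transcription, with the RefSeq gene span in black. Ring1b crosses the start of every gene except Foxa3, and KAP1 is absent from the grey band of 1 kb on each side at Foxc1, Foxf2 and Foxl1.

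Ring1b lay over the start site itself at 9 members. A Ring1b peak within 1 kb of a reference start was found at 28.5% of the 16853 coding genes with an entry, and a KAP1 peak at 59.9%. Against these shares over all genes, the members' 9 of 10 for Ring1b was higher and their 7 of 10 for KAP1 was nearer. These shares are not like for like. The members' starts came from deposited promoters, which are listed only where a peak was called, and those of all genes from RefSeq. Of the 11162 coding genes with a deposited promoter by symbol, 5351 had Ring1b there and 10421 had KAP1. Of the 9 members found that way, 8 had Ring1b and 6 had KAP1, so for KAP1 the members were not close to genes listed alike. Foxc2, Foxf1, Foxl1 and Foxq1 have no reference start and are not among the 16853. With the window narrowed to 250 bp, 9 members had Ring1b and 5 had KAP1, against 26.1% and 56.5% of genes. Widened to 5 kb, it held Ring1b at 9 and KAP1 at 10, against 31.8% and 67.1%. Among peaks in the upper 50% of scores of each list, Ring1b was still within 1 kb of 9 starts and KAP1 of 3, against 18.4% and 45% of genes. When at least 50% of a peak had to lie within 1 kb of the start, 2 members had Ring1b and 7 had KAP1. The share over all genes was not counted for this rule, which a peak wider than 4 kb cannot meet. The KAP1 count thus moved with the window and the score, and the Ring1b count fell only under the rule that wide peaks cannot meet. Over the gene span, 9 members had Ring1b and 8 had KAP1, against 33.9% and 69.6% of genes, and within 10 kb of the gene 9 and 10 did, against 43.7% and 79.4%. The peaks came from 2 cell lines, so an overlap compares lists and does not place KAP1 and Ring1b together in any cell. Of the 10 Ring1b peaks within 1 kb of a start, all scored above the list median, 7 had a score of 3100 and 8 were 4 kb or wider. Over the Ring1b list, 5.80% of peaks scored 3100 or more and 2.94% were at least 4 kb wide. The value 3100 was shared by 732 Ring1b peaks, in a list that ran to 3233, and may stand for a limit of the scoring. Peaks at 3100 therefore cannot be ranked among themselves or against peaks with higher scores.

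**Figure D2:**
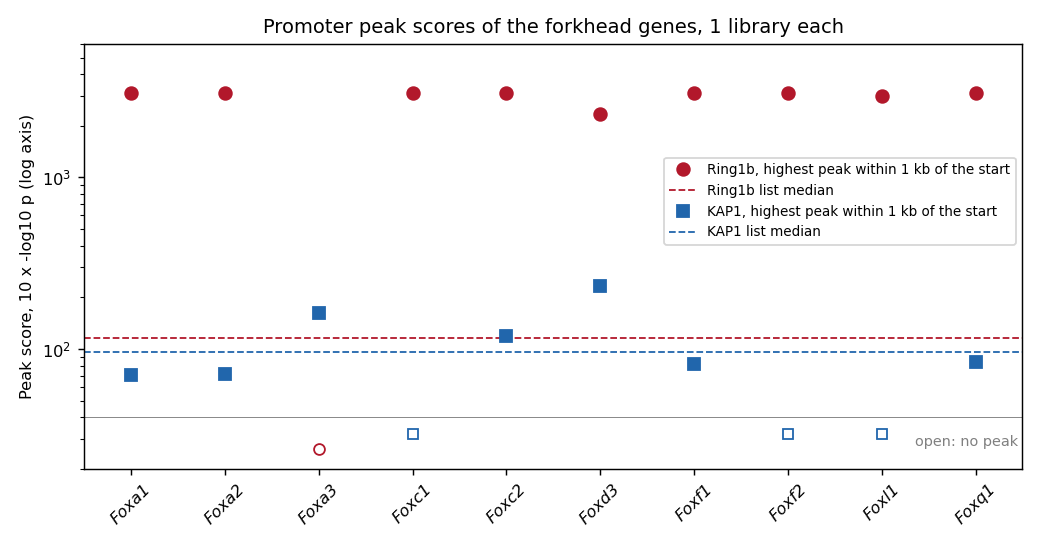
Score of the highest Ring1b peak (red circles) and KAP1 peak (blue squares) within 1 kb of each start site, on a log axis, 1 library each, with list medians dashed and open symbols where no peak was called. Ring1b scores run from 2351 at Foxd3 to 3100, above the list median of 116, while KAP1 scores run from 70.4 to 232 on both sides of the KAP1 median of 96.2.

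The Foxa genes, which encode pioneer factors of endoderm, differed most among themselves. Foxa1 lies on chromosome 12 (57540628 to 57548029, minus strand), with the deposited promoter centred on a start at 57546121, inside the RefSeq span and 10 bp from the start used for the sequence shown. This start was covered by a Ring1b peak of 7148 bp with a score of 3100 (chr12:57544176-57551323). A KAP1 peak of 580 bp with a score of 70.4 also crossed the start. The summits of these peaks, the positions of highest pileup, lay 2 bp apart, 345 and 343 bp downstream of the start. The median gap was 112 bp over the 10353 Ring1b peaks that met KAP1, and 429 bp over those of 4 kb or wider. Over the members' promoter Ring1b peaks that met KAP1 it was 533 bp. A further 2 Ring1b peaks lay in the gene, scoring 3100 and 130, and a KAP1 peak scoring 162 lay inside the former. With 1 more Ring1b peak past the gene's end, the peaks formed a run of 16930 bp with gaps of 79 to 214 bp. Ring1b thus extended from 5202 bp upstream of the Foxa1 start to 6234 bp beyond the end of the gene.

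Foxa2, a regulator of definitive endoderm, node and notochord, lies on chromosome 2 (148042877 to 148046969, minus strand). A single Ring1b peak of 7516 bp with a score of 3100 (chr2:148042061-148049576) covered 100% of the gene. The KAP1 peak of Foxa2 (657 bp, score 71.8) began 322 bp downstream of the start and did not cross it. Its summit was 1901 bp from the Ring1b summit. The Ring1b peak was followed 10 bp later by another of 4312 bp, also scoring 3100, which held no KAP1 peak. This second peak is the one the authors' deposited whole-gene table gives for Foxa2, although it ends 827 bp outside the RefSeq gene. The same table gives for Foxa1 a Ring1b region that ends 59 bp outside the RefSeq gene. In the authors' deposited whole-gene tables the low-coordinate end of a gene region lay 1 kb outside RefSeq (within 10 bp) in 75.3% of minus-strand and 41.8% of plus-strand rows compared, and the high-coordinate end was extended in 0 rows. For minus-strand genes the added 1 kb is therefore downstream of the gene.

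Foxa3, which acts in liver and gut endoderm, lies on chromosome 7 (19013283 to 19023539, minus strand) and was the exception. Of its own span, 0% lay under Ring1b, and the nearest Ring1b peak was 20259 bp away (chr7:18991112-18993024, score 1089). A KAP1 peak of 704 bp with a score of 162 crossed the start, with its summit 107 bp upstream. A second KAP1 peak (score 57.4) lay within 1 kb upstream and contained the start of Sympk, a gene for an RNA processing scaffold. The authors' deposited promoter table joins the promoters of Foxa3 and Sympk in a region of 2837 bp and gives KAP1 alone. The authors' deposited whole-gene table puts Foxa3 in the shared class. In the authors' deposited table its region of 62165 bp is 51908 bp longer than RefSeq Foxa3, and the Ring1b peak given there (score 449) lies 41417 bp from the gene, within Rsph6a. By the RefSeq span Foxa3 had KAP1 and no Ring1b.

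Foxd3, needed to maintain pluripotent cells of the early embryo and neural crest progenitors, lies on chromosome 4 (99656299 to 99658671, plus strand). Among the members it had the highest promoter KAP1 score in the peak list and, of the 9 with Ring1b, the lowest promoter Ring1b score. In the authors' deposited promoter table its KAP1 region, with narrower borders, scored 105, level with Foxa3 at 105 and below Foxc2 at 119. The start lay under a Ring1b peak of 2786 bp with a score of 2351 (chr4:99655697-99658482) and a KAP1 peak of 1387 bp with a score of 232 (chr4:99655691-99657077). That KAP1 score was higher than 88.8% of the KAP1 list. In all, 5 Ring1b peaks formed a run of 13913 bp that held 7 KAP1 peaks. KAP1 covered 42.4% of this run and 78.6% of the Foxd3 gene, against 97.98% of the gene for Ring1b. Of the window made of the gene with 10 kb on each side, 26.8% lay under KAP1, more than in 99.0% of all genes.

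Foxc1 and Foxc2 encode closely related factors of mesoderm, eye and vessel development and sit on different chromosomes. Foxc1 lies on chromosome 13 (31806646 to 31810635, plus strand), and a Ring1b peak of 4727 bp with a score of 3100 covered its start with no KAP1 peak in it. The next Ring1b peak (chr13:31810190-31812302) scored 3126, and it held 2 KAP1 peaks scoring 102 and 154. Those KAP1 peaks lay at the end of the gene, with 0.827% of the gene under KAP1, so Foxc1 was Ring1b only at the promoter and shared over the gene. Foxc2 lies on chromosome 8 (121116171 to 121118895, plus strand), and a Ring1b peak of 5640 bp with a score of 3100 covered 100% of it. A KAP1 peak of 779 bp with a score of 119 crossed the Foxc2 start, its summit 134 bp upstream. The paralogs thus both had wide Ring1b over the gene, with KAP1 at the start of Foxc2 and at the far end of the Ring1b run of Foxc1.

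Foxf1 and Foxf2 act in splanchnic mesoderm, from which gut and lung mesenchyme arise. At Foxf1 (chromosome 8, 121084386 to 121088154, plus strand) a Ring1b peak of 6395 bp with a score of 3100 (chr8:121079851-121086245) covered both its start and the start of Fendrr. A KAP1 peak (451 bp, score 81.3) lay 393 bp upstream of Foxf1, between the starts, with its summit 87 bp from that of Ring1b. No KAP1 peak lay within the Foxf1 span itself, and the authors' deposited whole-gene table gives that upstream peak for its shared class. At the end of Foxf1 a second Ring1b peak (score 691) held a KAP1 peak (score 99.9). Foxf2 (chromosome 13, 31625816 to 31631406, plus strand) had a Ring1b peak of 6737 bp with a score of 3100 over its start. Its only KAP1 peak within 10 kb scored 50.6, close to the list minimum of 50.0, with a summit 3733 bp downstream of the start. The shared class of Foxf2 in the authors' deposited whole-gene table rested on that peak.

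Foxl1 and Foxq1, which act in gut mesenchyme and in stomach and hair respectively, completed the set. At Foxl1 (chromosome 8, 121127685 to 121130644, plus strand) the Ring1b peak over the start was 4510 bp wide and scored 2999. No KAP1 peak lay in the gene, and the nearest was 1738 bp upstream with a score of 176. That KAP1 peak had 690 bp in common with the Ring1b peak over the start. Foxl1 was the member that stayed Ring1b only in the authors' deposited whole-gene tables. Foxq1 (chromosome 13, 31558170 to 31560976, plus strand) had the narrowest run, a single Ring1b peak of 3203 bp with a score of 3100. It held 2 KAP1 peaks, scoring 84.4 with a summit 58 bp upstream of the start and 97.7 within the gene. KAP1 covered 52.9% of the Foxq1 run, the highest share among the members, ahead of Foxd3.

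Joined across gaps of up to 1 kb, Ring1b formed a run over 9 start sites with a median length of 6890 bp. The shortest was that of Foxq1, and the longest was that of Foxa1, followed by Foxd3, Foxf2 (12019 bp) and Foxa2 (11838 bp). These 4 were 10 kb or longer, as were 77 of the 11357 runs in the genome, or 0.678%. The median over all runs was 724 bp. KAP1 covered between 4.22% of the run at Foxf2 and the share given for Foxq1. The KAP1 peaks within 10 kb of a member had a median width of 678 bp, beside 512 bp over the KAP1 list. Of the 30 KAP1 peaks within 10 kb of a member, 17 lay wholly inside a Ring1b peak and 7 met none, and all 7 were at Foxa3. Over the whole KAP1 list 13.7% of peaks met Ring1b. Of the 14 Ring1b peaks over the gene spans, 12 met a KAP1 peak (85.7%), against 76.6% of the whole Ring1b list and 86.4% of its peaks of 4 kb or wider. KAP1 lay under 18.8% of the bases of those 14 peaks, close to 22.1% for all Ring1b peaks of 4 kb or wider, and below 47.7% for the whole list.

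Some members are chromosomal neighbours, but no Ring1b peak covered the starts of 2 of them. On chromosome 8, Foxf1, Foxc2 and Foxl1 fall within 46259 bp, of which Ring1b covered 34.2% and KAP1 9.73%. Between Foxc2 and Foxl1, 8789 bp apart, Ring1b covered 43.4% of the interval, which includes parts of the peaks over both starts. On chromosome 13, Foxq1, Foxf2 and Foxc1 fall within 252466 bp, of which Ring1b covered 8.40% and KAP1 0.904%. The interval of 64839 bp between Foxq1 and Foxf2 held 5 Ring1b peaks, those of the Foxf2 run, and 0 KAP1 peaks. That of 175239 bp between Foxf2 and Foxc1 held 4 and 1, and Ring1b covered 2.09% of it. The 4 Ring1b peaks all lay within 10 kb of Foxc1 and included the peak over its start. Neighbouring members therefore differed in KAP1 within 1 kb of the start: Foxq1 had it and Foxf2 and Foxc1 did not, and Foxc2 had it and Foxl1 did not. Over the Ring1b runs around these starts, KAP1 covered 24.8% at Foxl1 and 12.3% at Foxc2. It covered 52.9% at Foxq1, 22.2% at Foxc1 and 4.22% at Foxf2.

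The promoter classes were then counted against other genes. By symbol in column 1 of the authors' deposited tables, 5 members were shared, 1 was KAP1 only, 3 were Ring1b only and 1 was in no promoter table. The shares over all coding genes counted the same way were 21.9%, 28.1% and 3.67% for the 3 classes. Matched by accession, which brings in Foxf1, 6 members were shared, 1 was KAP1 only and 3 were Ring1b only, beside 24.7%, 34.2% and 3.99% of all genes. Among genes with Ring1b at a promoter, KAP1 was there in 6 of 9 members (66.7%) and in 86.4% of all such genes. By symbol in the whole-gene tables, the shared class held 9 members and 25.7% of all genes, the KAP1 only class 0 members and 26.4%, and the Ring1b only class 1 member and 1.85%. The 9 include Foxa3, with no Ring1b over its RefSeq span, and Foxf1, with no KAP1 over its own. Foxc1 counts through KAP1 over 0.827% of the gene, and Foxf2 through a KAP1 peak scoring 50.6. The lists were chosen with earlier results of these data known, so these counts carry no test.

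**Figure D3:**
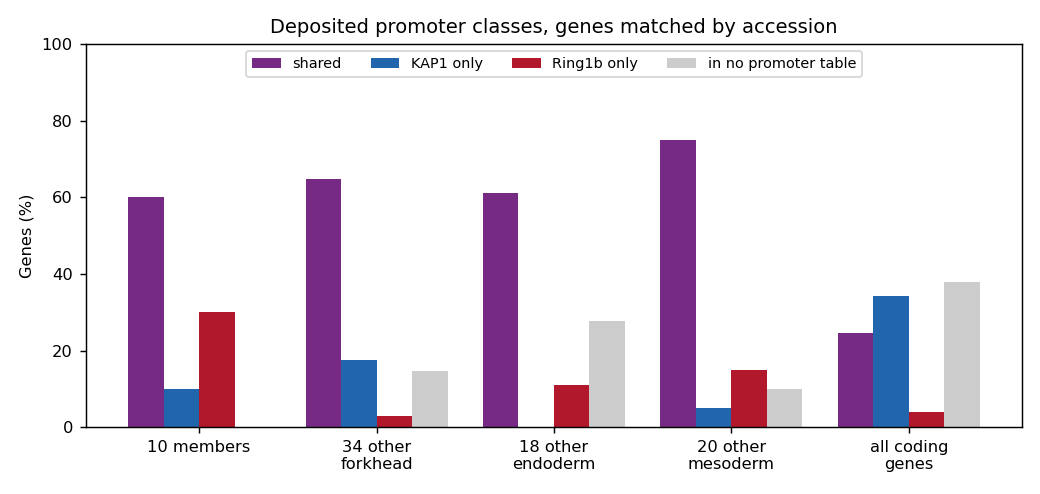
Percent of genes in each deposited promoter class, matched by accession, for the 10 forkhead genes, 34 other forkhead genes, 18 other endoderm regulators, 20 other mesoderm regulators and all 21031 coding genes. The shared class holds 60% of the members and 24.7% of all genes, and the Ring1b only class 30% and 3.99%; a gene with several promoters can count in more than 1 class.

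By accession, 22 of the other 34 forkhead genes were shared, 6 KAP1 only, 1 Ring1b only and 5 in no promoter table. By promoter Ring1b score, with ties taken by symbol, the 3 named were Foxe3 (3202), a lens gene, and Foxb1 and Foxb2, both at 3100. Scores of 3100 are not ranked against 3202 here. By the share of the 10 kb window under each protein, Foxd1, Foxb2 and Foxd2 lay nearest the members' medians. Ring1b and KAP1 covered 40.8% and 12.9% of the Foxd1 window, 34.5% and 4.26% at Foxb2, and 50.9% and 8.97% at Foxd2. All 3 had shared promoters with Ring1b at 3100, and their KAP1 scores were 127, 136 and 115.

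By symbol, of 18 other endoderm regulators, 11 had a shared promoter, 2 were Ring1b only and 5 were in no promoter table. Cdx2 and Gata6, regulators of trophectoderm and hindgut and of primitive endoderm, were both at 3100 for Ring1b, with KAP1 scores of 67.0 and 103. Of 20 other mesoderm regulators, 15 had a shared promoter, 3 had a Ring1b only promoter, 1 was KAP1 only and 2 were in no table, where a gene with several promoters can count in more than 1 class. Eomes, Evx1 and Gsc, which act in the primitive streak, were at 3100 for Ring1b with KAP1 scores of 198, 388 and 81.3. These genes were named for their high promoter Ring1b scores, so their equal Ring1b scores are not a result.

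Ring1b covered a median of 41.8% of the window of gene and 10 kb on each side for the 10 members, from 0% at Foxa3 and 14.04% at Foxq1 to 60.3% at Foxa1. The medians were 3.10% for other forkhead genes, 8.88% for other endoderm regulators, 30.3% for other mesoderm regulators and 0% over all coding genes. Each of the 9 members with Ring1b lay above at least 97.6% of all genes. KAP1 covered a median of 6.89% around the members, from 1.98% at Foxf2 to the value given for Foxd3. Its medians were 5.45%, 3.61% and 7.04% for the same 3 lists and 2.94% over all genes. These windows are short for short genes, so a gene's length bears on its share. The members are between 2373 bp (Foxd3) and 10257 bp (Foxa3) long.

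**Figure D4:**
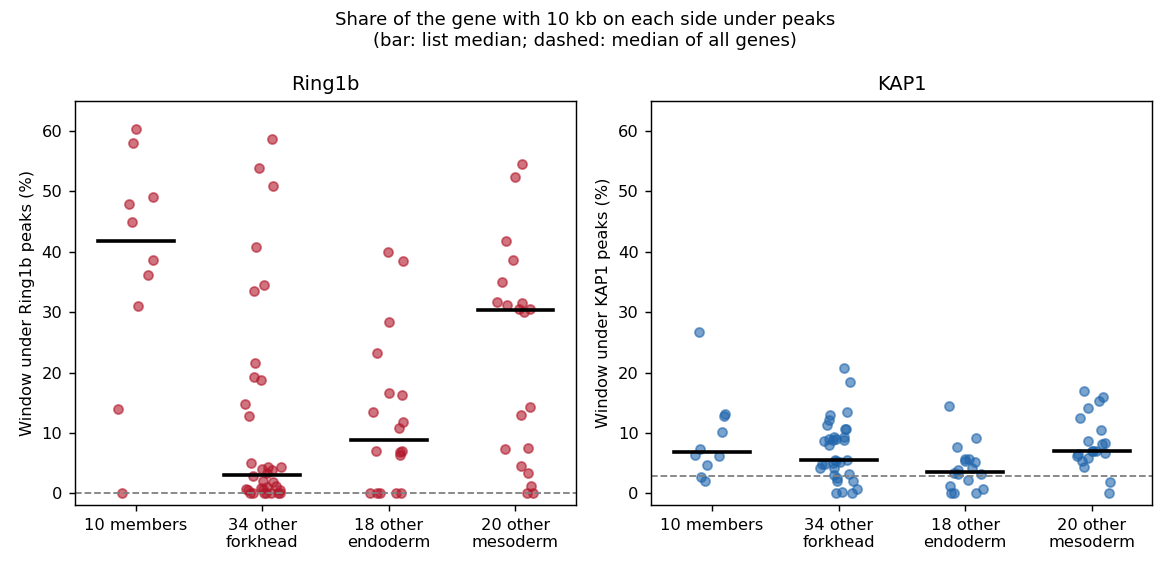
Percent of each gene's window (gene span with 10 kb on each side) under vehicle Ring1b peaks (left) and KAP1 peaks (right), 1 point per gene, with list medians as bars and the median of all coding genes dashed. The median for Ring1b is 41.8% in the members and 3.10% in other forkhead genes, while for KAP1 the medians are 6.89% and 5.45%.

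The last comparison asked whether Ring1b was called at these genes in cells labelled as KAP1 fl/fl with tamoxifen, whose loss of KAP1 the peak lists do not measure. The knockout list had 0 peaks within 1 kb of the members' starts, 0 over their spans and 0 within 10 kb. Over all genes with a reference start, 2.79% had such a peak within 1 kb, and 14.3% of all coding genes had one over the span and 21.8% within 10 kb. A count of 0 among 10 genes is therefore close to the share at starts over all genes and is not particular to the members. Within windows of 250 bp and 5 kb, and among the upper 50% of scores, the list also had 0 peaks at the members' starts, against 2.11%, 5.63% and 1.67% of genes. The nearest knockout-list peak lay 24788 bp from Foxl1, 32903 bp from Foxd3 and 36537 bp from Foxc2, and 855320 bp from Foxa2. These nearest peaks scored between 51.0 and 69.2. Side by side, the vehicle Ring1b list gave the 9 members scores of 2351 to 3100 and the knockout list gave them no peak. The lists share their control library and differ in cell line and in tamoxifen treatment as well as in KAP1, so the effects of the deletion, the line and the drug cannot be told apart. Chromosome 8, which holds Foxf1, Foxc2 and Foxl1, carried 12.6% of the knockout list and 3.95% of the vehicle Ring1b list.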

How the data were processed

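MACS 1.4.2, Bowtie2, bedtools 2.16.2 and CASAVA 1.8.2 are named, with mm10 (GRCm38), in the submitters' processing notes. The unit of all files used is a score that the authors deposited, 10 times the -log10 p of a peak against its control library, per the file headers, rounded in the tables. The authors called each list on 1 library against another, with no pooling stated, and sorted promoters and genes into 3 classes. In the promoter rows of Foxa3 and Foxd3 the deposited KAP1 region shares its summit with a listed peak but has narrower borders and a lower score, and the peak lists were used.

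Gene spans and accessions came from RefSeq GRCm38.p6, which gives no exons here, so positions were not split into exon and intron. Members' start sites were read 1 kb inside the deposited promoters, and start sites of all genes came from RefSeq. Overlap meant at least 1 bp in common, and coordinates are 1-based. Interval counts were made in Python 3.11.15 with pandas 2.3.3 and were tested on simulated intervals. No test was run: each group has 1 library. The members and lists were chosen with earlier results of these data known. Named genes were all members, the 3 other forkhead genes nearest the members' median coverage, and the 3 of each list with the highest promoter Ring1b score, ties by symbol; some of these are not reported here.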

Additional observations from a re-analysis of the deposited data

How the results depend on the processing

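Leaving out a replicate was not run, and no paired analysis was possible because each group has 1 library. In the whole-gene tables the members were 9 shared, 0 KAP1 only, 1 Ring1b only and 0 unlisted, and matching by accession, chosen after seeing the data, also left 0 unlisted. Of the 9, Foxa3 and Foxf1 did not have both proteins over the RefSeq span. In the same tables the other forkhead genes had 0 Ring1b only, the endoderm list 1 KAP1 only and 1 Ring1b only, and the mesoderm list 0 KAP1 only, 1 Ring1b only and 4 unlisted. With only the upper 50% of scores in each list, the members were 2 shared and 6 Ring1b only. The classes of all coding genes were not counted under this rule, so the shift cannot be called particular to the members. In that setting 3 rather than 7 had KAP1 within 1 kb of the start. The 9 members with Ring1b within 1 kb stayed 9 in that setting and with windows of 250 bp and 5 kb, while KAP1 was at 5 and 10 starts in those windows. Requiring 50% of the peak inside the window left 2 members with Ring1b and 7 with KAP1. A peak wider than 4 kb cannot meet this rule, and 8 of the 10 promoter Ring1b peaks are 4 kb or wider. Over the gene spans, 12 KAP1 and 14 Ring1b peaks became 30 and 29 with 10 kb on each side, and 7 KAP1 peaks remained with the upper scores. Of the 14 Ring1b peaks, 7 met an upper-score KAP1 peak, a share not counted over the whole list. At least 50% of the bases lay under KAP1 in 3 of the 14. This held for 63.5% of all Ring1b peaks and 8.79% of those 4 kb or wider. With 5 kb flanks the median Ring1b coverage was 61.4%. Among the 12936 genes in any deposited table, the classes held 35.6% (shared), 45.7% (KAP1 only) and 5.96% (Ring1b only). Knockout-list counts were 0 under every setting run. What read depth limits in these lists was not analysed here.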
